A study of Mus musculus with 7 samples.

Results

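The genes of the cytosolic ribosomal proteins were examined in sorted cells of the embryonic mouse neocortex. Members were the rows of the deposited count table that are annotated as protein-coding and carry a ribosomal protein symbol of the small subunit (*Rps* and a number, *Rpsa*), the large subunit (*Rpl* and a number) or the stalk (*Rplp0*, *Rplp1*, *Rplp2*), with pseudogenes and the *Rps6k* kinases left out. This rule, which uses names and no measured value, found 82 genes among the 38124 of the table: 32 of the 40S subunit, 47 of the 60S subunit and 3 of the P-stalk. All embryos were of the *Tis21*-CreERT2 line, in which the *Tis21* locus drives a tamoxifen-activated Cre recombinase in neurogenic progenitors, and all pregnant mice were given tamoxifen. Electroporation in utero delivered either a control construct or a conditional Sox9 expression construct, and in both Cre switched on a nuclear RFP. Cells with the strongest RFP signal (High RFP) were sorted at embryonic day 15.5, 48 hr after electroporation, from pooled cortices, giving 3 control libraries (replicates 1, 2 and 4) and 4 libraries labelled Sox9 (replicates 1 to 4). Which embryos went into which library is not given by the labels, and p-values measure the spread between these 7 libraries.

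Ribosomal proteins assemble with ribosomal RNA in the nucleolus into a small subunit, which reads the mRNA, and a large subunit, which joins amino acids. Most are made in equal numbers, since each ribosome holds a single copy of nearly all of them, and their mRNAs are among the most abundant of growing cells. Many of these mRNAs begin with a C followed by a run of pyrimidines, the 5′ terminal oligopyrimidine (TOP) tract, through which the mTOR kinase controls their translation. In the developing neocortex, ribosome production is known to be high in progenitors and to decline as development proceeds.

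The annotated starts of several members show this tract. The windows below cover 15 bases before the start and 15 from it on, on the gene's strand in GRCm38.p6, with the sequences and starts taken from RefSeq, and capitals mark the longest run of C and T in the window. *Rps6* and *Rpl22l1* had the largest differences between the groups and *Rps10* and *Rps2* the smallest with TMM scaling (explained further on), although *Rps10* and *Rps2* were above 0 with total counts only and with loess, *Rps27* and *Rps27l* are paralogs, *Rpl38* is a large-subunit protein with a tract at its start, and *Eef1a1* (translation elongation factor) is a TOP mRNA that is no ribosomal protein.
Rps6 (chr4:86857353-86857382, minus strand): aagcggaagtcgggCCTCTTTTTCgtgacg
Rpl22l1 (chr3:28805493-28805522, plus strand): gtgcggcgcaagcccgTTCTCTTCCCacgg
Rps10 (chr17:27635230-27635259, minus strand): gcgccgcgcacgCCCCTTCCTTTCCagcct
Rps2 (chr17:24720048-24720077, plus strand): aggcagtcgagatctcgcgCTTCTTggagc
Rps27 (chr3:90213634-90213663, minus strand): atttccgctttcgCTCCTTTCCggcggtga
Rps27l (chr9:66946071-66946100, plus strand): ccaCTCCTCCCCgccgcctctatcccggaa
Rpl38 (chr11:114668565-114668594, plus strand): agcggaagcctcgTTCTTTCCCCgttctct
Eef1a1 (chr9:78481710-78481739, minus strand): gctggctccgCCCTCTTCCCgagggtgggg

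Before the results, some properties of the libraries are given. Control libraries held between 10465562 and 12907778 counted reads. Sox9-labelled libraries mostly held fewer, between 4429704 and 10520214, and only their replicate 2 exceeded the lowest control. Depth therefore differed between the groups, and its part in the results was not tested. Counts on *Sox9* itself were 362, 1026 and 668 for the controls against 370, 435, 277 and 177 for the libraries labelled Sox9. These counts are not scaled to depth, and they were not raised in the Sox9-labelled libraries. By qPCR, the authors reported the highest relative *Sox9* level in High RFP cells electroporated with the Sox9 construct. Directions below follow the labels. Neuronal markers were abundant in both groups (summed CPM, counts relative to a library total adjusted by the TMM factor given further on, of 8 genes from 12698 to 15749 in the controls, against 11464 to 13520), whereas the 8 radial glia markers summed to between 550 and 1069 CPM and between 262 and 401 CPM. At an adjusted p under 0.01 in the edgeR test described below, 4 of 8 radial glia genes and 2 of 6 intermediate progenitor genes were called lower, against 3.43% of all genes tested.

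Ribosomal protein genes held a small and similar part of all counts in both groups. Their summed counts were 2.64%, 2.66% and 2.96% of the library in the control replicates 1, 2 and 4, with a Wilson 95% interval from 2.95% to 2.97% for the last. In the libraries labelled Sox9 the share was 2.85%, 2.42%, 2.14% and 2.84% in replicates 1 to 4. The groups overlapped, and replicates 1 and 4 of the libraries labelled Sox9 lay between the control values. The mean was 2.75% ± 0.176 (SD, n = 3) for the controls and 2.56% ± 0.348 (SD, n = 4) for the Sox9-labelled libraries, a difference of -0.19 percentage points that was smaller than the SD of the second group. The intervals cover counting error only, since PCR copies were not tagged.

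The same sum looked different once the libraries were scaled by the trimmed mean of M-values (TMM), the scaling used in the tests below. TMM factors were 0.893 to 0.941 in the controls, against 1.01 to 1.10 in the Sox9-labelled libraries, without overlap. After TMM the members summed to 29253, 29772 and 31418 CPM in the controls, against 25956, 23955, 19455 and 26307 CPM in the Sox9-labelled libraries. These sums did not overlap, in contrast to the shares of raw counts, and the lowest came from replicate 3. CPM is relative to the library, so it does not measure the amount of RNA per cell. A lower relative level in bulk samples can reflect fewer cells of a type, lower expression per cell or the scaling itself, which cannot be told apart here.

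**Figure D1:**
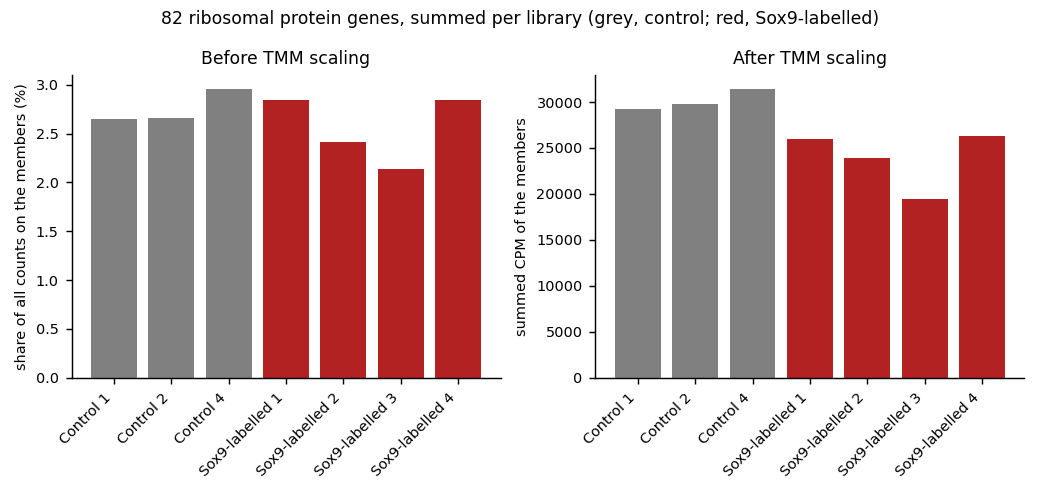
Summed counts of the 82 ribosomal protein genes per library, as percent of all counts (left) and as CPM after TMM scaling (right), for 3 control libraries (grey) and 4 libraries labelled Sox9 (red). The shares overlap between the groups (2.64% to 2.96% against 2.14% to 2.85%), whereas the TMM-scaled sums do not (at least 29253 against at most 26307 CPM).

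For single members the quasi-likelihood F-test of edgeR was fitted over the 16522 genes that passed the filter on low counts, with p-values adjusted over all of them by the Benjamini-Hochberg method. Of the 82 members 79 passed the filter. At an adjusted p under 0.01, 2 members were called lower in the libraries labelled Sox9, *Rps6* and *Rpl3*, against 3.43% of all genes tested. No member was called higher, against 11.3% of all genes, and 47 members had an unadjusted p under 0.05, as did 44.0% of all genes and 48.7% of other genes at the members' level (defined below) in either direction. At an adjusted p under 0.05, 27 members (34.2%) were lower, against 10.8% of all genes. With DESeq2, 22 members were lower at an adjusted p under 0.01, against 7.42% of the genes to which it gave an adjusted p. Without the filter on low counts edgeR called 24 members lower at 0.01, against 4.47% of all genes, and with at least 10 counts required in every library 0 members, against 1.77%. The share among genes at the members' level is not given for DESeq2 or these filters. In the main edgeR fit that share (8.28% lower at 0.01) was above the 3.43% of all genes.

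The fitted log2 fold change was below 0 for all 79 members with TMM scaling and for 62 of 79 both with total counts as the only scaling and with cyclic loess. With TMM it ran from -0.58 (*Rpl22l1*) to -0.061 (*Rps10*), with a median of -0.31, a level 19.2% lower. Over all genes tested the median was -0.003 and 50.2% of genes were below 0. That comparison is uneven, because the fold change depended on the level: the median of genes that are not members was 1.44 between 0 and 1 log2 CPM and -0.28 between 9 and 10. Members are read here against 2959 other genes at the same level, those with an average from 6.02 to 9.78 log2 CPM.

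Genes at the members' own level were mostly below 0 as well. Among these 2959 genes the median log2 fold change was -0.26, and 89.5% were below 0. At an adjusted p under 0.01, 8.28% of them were called lower and at 0.05 30.8%, close to the 34.2% of members. All 4 libraries labelled Sox9 lay below all 3 control libraries in 50 members (63.3%), in 45.4% of the genes at the same level and in 16.6% of all genes. The median of the members was slightly below that of genes at the same level (differences of -0.049 on the log2 scale with TMM, -0.050 with total counts only and -0.051 with loess), and 58 of 79 members were under that median.

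**Figure D2:**
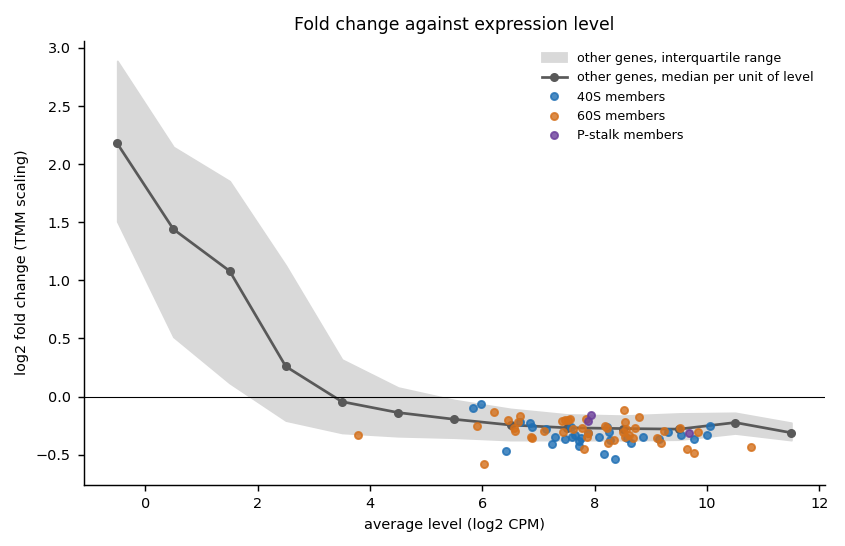
Log2 fold change (libraries labelled Sox9 over control, TMM scaling, vertical) against average level in log2 CPM (horizontal). Points are the 79 tested members by subunit, and the grey line and band are the median and interquartile range of genes that are not members per unit of level. Most members lie inside or just below the band, at a median of -0.31 against -0.26 for genes at the same level, and with total counts only or loess the members centre on -0.078 and -0.067.

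Of the 32 genes of the small subunit, all tested, 1 was called lower at an adjusted p under 0.01 and 15 at 0.05 (where 10.8% of all genes and 30.8% of genes at the same level were called), with a median log2 fold change of -0.35 (with TMM). *Rps6* (chr4:86854660-86857412, minus strand of GRCm38), whose protein is phosphorylated by the S6 kinases downstream of mTOR, had 394, 400 and 410 CPM in the controls, against 288, 272, 224 and 317 CPM in the Sox9-labelled libraries. The groups did not overlap, and the control values were close together. The log2 fold change of *Rps6* was -0.54 with a standard error of 0.12 (edgeR adjusted p = 0.00502), with adjusted p-values from 9.74e-05 to 0.120 and a call in 8 of 18 other fits. *Rps25*, a protein of the subunit head used by viral internal ribosome entry sites, had 329, 345 and 359 CPM against 269, 229, 169 and 309 CPM (log2 fold change -0.49, standard error 0.16, adjusted p = 0.0294 by edgeR). Replicate 3 was lowest and replicate 4 came near the control range. *Rpsa*, the laminin receptor protein of the subunit, had 362, 341 and 352 CPM against 303, 260, 239 and 284 CPM and *Rps24*, mutated in Diamond-Blackfan anaemia, had 162, 169 and 198 CPM against 146, 123, 105 and 156 CPM. Both pairs of groups were apart, with log2 fold changes of -0.37 and -0.41 (edgeR adjusted p = 0.0212 and 0.0383).

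*Rps19*, the gene most often mutated in Diamond-Blackfan anaemia, had 653, 725 and 747 CPM in the controls, against 644, 577, 410 and 652 CPM in the Sox9-labelled libraries. Its replicates 1 and 4 came within 10 CPM of the lowest control library (log2 fold change -0.31, edgeR adjusted p = 0.114). *Rps27a*, which is made as a fusion with ubiquitin, had 239, 232 and 266 CPM against 217, 153, 130 and 228 CPM (log2 fold change -0.43, edgeR adjusted p = 0.0635). *Rps4x*, an X-linked member, had 319, 296 and 308 CPM against 249, 254, 237 and 223 CPM, with a narrow spread in both groups and no overlap (log2 fold change -0.35, edgeR adjusted p = 0.0206). *Rps10* had 63.3, 55.5 and 72.8 CPM against 63.8, 61.2, 55.5 and 63.7 CPM, so the groups shared their range. Its log2 fold change of -0.061 (edgeR adjusted p = 0.757) was the nearest to 0 of the members with TMM and was 0.17 with total counts only and 0.17 with loess.

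In the large subunit 44 of 47 genes were tested, 1 was called lower at an adjusted p under 0.01 and 11 at 0.05 (against the same 10.8% and 30.8%), and the median was -0.30 (with TMM). *Rpl3* (chr15:80077791-80091868, minus strand of GRCm38), which lies near the peptidyl transferase centre, had 1043, 1060 and 1014 CPM in the controls, against 785, 754, 657 and 762 CPM in the Sox9-labelled libraries. Both groups were tight and apart. *Rpl3* had a log2 fold change of -0.49 with a standard error of 0.10 (edgeR adjusted p = 0.00392), with adjusted p-values from 3.10e-05 to 0.130 and a call in 9 of 18 other fits. With total counts only it was -0.26, and *Rpl3* was then the single member with an adjusted p under 0.05. *Rpl4*, which lines the exit tunnel of the nascent protein, had 1916, 2187 and 2115 CPM against 1374, 1763, 1417 and 1564 CPM (log2 fold change -0.43, standard error 0.11, edgeR adjusted p = 0.0112). Its groups were apart, and its lowest library was replicate 1 rather than 3.

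*Rpl5* and *Rpl11*, which with the 5S RNA bind Mdm2 and so link ribosome assembly to p53, are described next. *Rpl5* had 267, 268 and 254 CPM in the controls, against 223, 191, 141 and 213 CPM in the Sox9-labelled libraries (log2 fold change -0.45, edgeR adjusted p = 0.0259). For *Rpl11* the values were 241, 231 and 251 CPM against 207, 198, 168 and 226 CPM (log2 fold change -0.27, edgeR adjusted p = 0.0911). Neither gene had overlapping groups, and the difference between their fold changes was not tested. *Rpl10*, the X-linked protein that completes the subunit, had 314, 311 and 329 CPM against 295, 277, 221 and 272 CPM (log2 fold change -0.25, edgeR adjusted p = 0.107). *Rpl38*, needed for translation of certain Hox mRNAs, had 101, 102 and 121 CPM against 109, 90.0, 75.4 and 109 CPM. The ranges of *Rpl38* overlapped (log2 fold change -0.17, edgeR adjusted p = 0.395, and 0.062 with both total counts only and loess). *Rpl27a* had 73.7, 70.4 and 88.6 CPM against 78.5, 68.1, 61.0 and 75.2 CPM, with a log2 fold change of -0.13 with TMM, 0.098 with total counts only and 0.10 with loess.

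The P-stalk recruits the elongation factors to the ribosome. *Rplp0*, its base, had 918, 908 and 947 CPM in the controls, against 860, 749, 643 and 719 CPM in the Sox9-labelled libraries, without overlap (log2 fold change -0.31, edgeR adjusted p = 0.0474). *Rplp1* and *Rplp2*, the acidic proteins bound to it, had log2 fold changes of -0.21 and -0.16 with TMM and of 0.021 and 0.069 with total counts only, with edgeR adjusted p-values of 0.191 and 0.289. *Rplp1* had 257, 226 and 276 CPM against 245, 209, 193 and 226 CPM, and its groups shared part of their range.

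**Figure D3:**
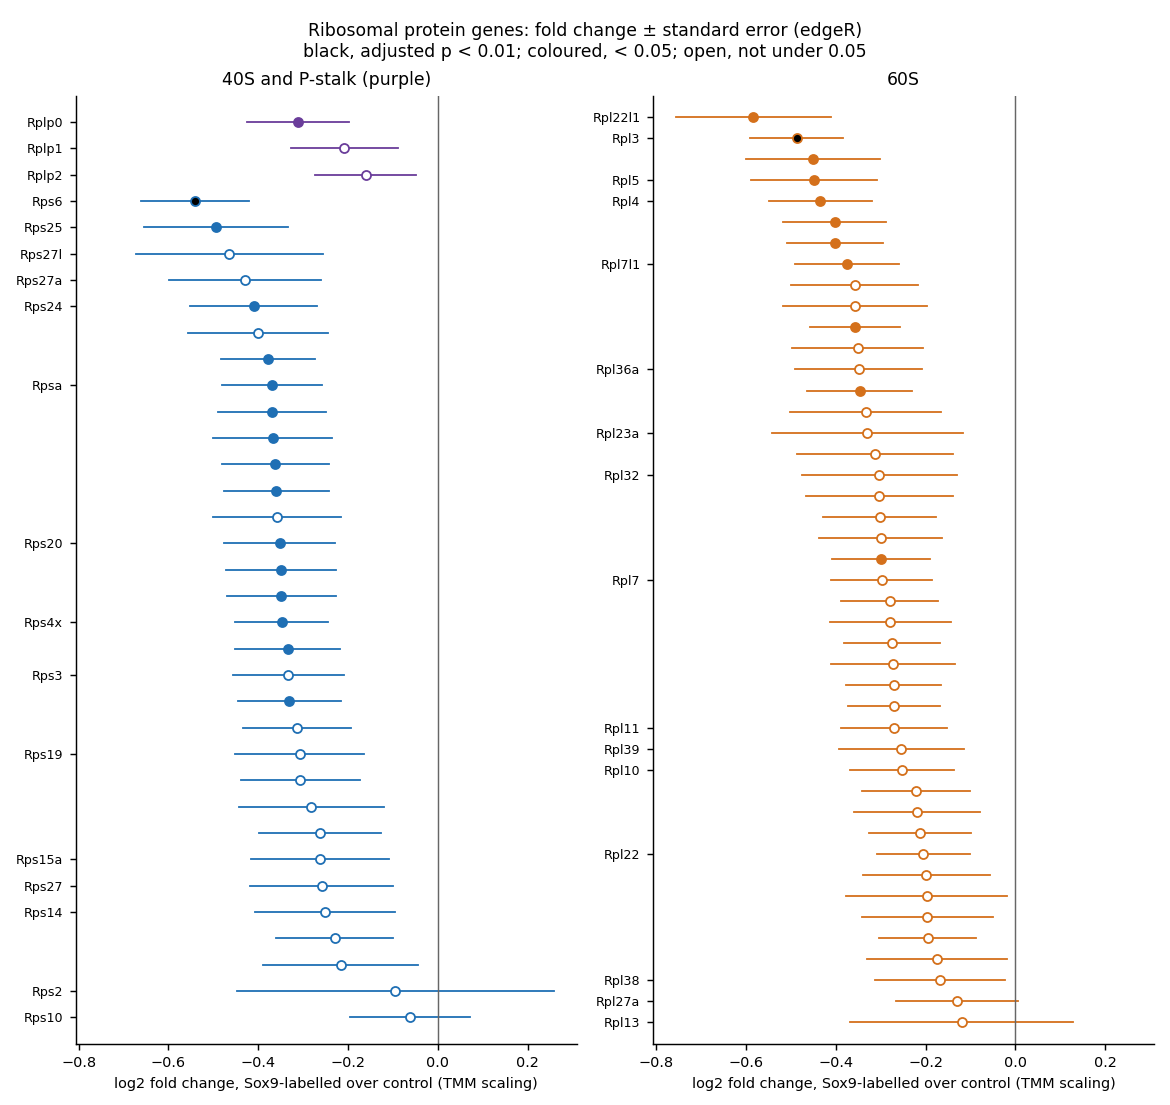
Log2 fold change (libraries labelled Sox9 over control, TMM scaling) with its standard error for the 79 tested members, 40S and P-stalk on the left and 60S on the right. Names mark members described in the text. Black points are the 2 genes with an edgeR adjusted p under 0.01, filled points those under 0.05 and open points the rest. Every point lies below 0 with TMM, from -0.58 to -0.061, whereas 17 lie above 0 with total counts only.

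The size of the members' difference depended on the scaling of the libraries. With total counts as the only scaling the members' median was -0.078, 0 members were called lower at an adjusted p under 0.01 (1.36% of all genes were) and 1 at 0.05 (2.68% of all genes), and 3 had an unadjusted p under 0.05, against 38.2% of all genes and 16.9% of genes at the same level in either direction. This choice moved the median of all genes by 0.23, to 0.23. As shares of raw counts, 4 members instead of 50 had all libraries labelled Sox9 below all controls, against 4.64% of all genes and 10.4% of genes at the same level on that scale. Cyclic loess, which removes the trend of fold change with level, gave a median of -0.067 for members and -0.016 for genes at the same level, and 0 members were called in either direction at an adjusted p under 0.01 by limma. In that fit 1.72% of all genes were lower and 2.20% higher, and 1.01% and 0.946% of genes at the same level, so the count of members is near this background.

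A scaling to the summed counts of the members themselves, chosen after seeing the data, asks whether the makeup of the set differed between the groups. With it 0 of 79 members passed an adjusted p under 0.01 or 0.05 in edgeR's quasi-likelihood test, and 0 had an unadjusted p under 0.05 (39.1% of all genes and 10.7% of genes at the same level did), while 0.956% of all genes were called lower and 17.6% higher. The smallest adjusted p of a member was 0.207. Differences relative to the set ran from -0.26 (*Rpl22l1*, standard error 0.16) to 0.28 (*Rps10*, standard error 0.16), and 53 of 79 were within 0.1 of 0. *Rps6* was at -0.21 (standard error 0.13) on this scale, and the small-subunit and large-subunit medians were -0.011 and 0.041. The ratio of small-subunit to other members' counts was 0.651, 0.654 and 0.667 in the controls, against 0.681, 0.631, 0.616 and 0.666 in the Sox9-labelled libraries, with overlap. A change in the relative makeup of the ribosomal protein mRNAs was therefore not detectable with these libraries.

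**Figure D4:**
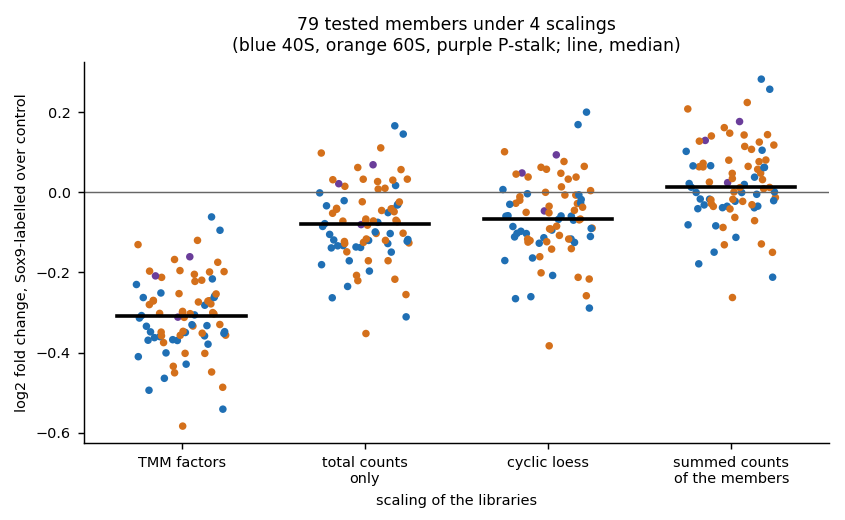
Log2 fold changes of the 79 tested members (points, by subunit) under 4 scalings of the libraries, with the median as a line. The median is -0.31 with TMM factors, -0.078 with total counts only, -0.067 with cyclic loess and 0.013 when libraries are scaled to the summed counts of the members.

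The members varied together from library to library. After TMM scaling, the mean over the 79 members in each library carried 68.0% of the variance of their log2 CPM around each gene's own mean. Replicate 3 of the libraries labelled Sox9 held the lowest value of 72 members and lay a median of -0.43 log2 units from the genes' means, against -0.14 for replicate 2, 0.028 for replicate 1 and 0.016 for replicate 4. Control replicate 4 held the highest value of 63 members. Without replicate 3 of the libraries labelled Sox9 the median log2 fold change of the members was -0.21, and no member was called. The share of all genes called in that fit is not given here, so this count is not read as a result about the members. Marker sums of some other cell types also differed between the groups, on a scale where 11.3% of all genes were called higher and genes with few counts had fold changes above 0 (medians of 1.44 and 1.08 at 0 to 1 and 1 to 2 log2 CPM). The oligodendrocyte precursor list summed to 0.609 to 1.39 CPM in the controls and to 9.45 to 22.7 CPM in the Sox9-labelled libraries. Its 5 genes had at most 7 counts in any control library, and 4 of them passed the filter on low counts through the Sox9-labelled libraries, so their calls are not read as a result. Endothelial markers summed to 3.15 to 11.1 CPM against 13.6 to 36.6 CPM (2 of 5 called higher, medians of 1.78 and 1.19). For mural and meningeal cells the sums were 7.44 to 8.76 CPM against 11.0 to 19.8 CPM (1 of 5), but the median of 0.97 with TMM was -0.0072 with loess. Sums of red blood cell markers overlapped (2.10 to 24.6 CPM against 14.5 to 94.3 CPM, 1 of 6 called higher, medians of 1.99 and 1.96), as did those of microglia (8.30 to 29.6 CPM against 11.7 to 50.4 CPM, 1 of 6, medians of -0.0034 and -0.83). Several genes of these lists, such as *Acta2* and *C1qa*, also had few counts in the controls, so the counts of calls depend on the filter in the same way. The part of these markers in the members' result was not tested.

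**Figure D5:**
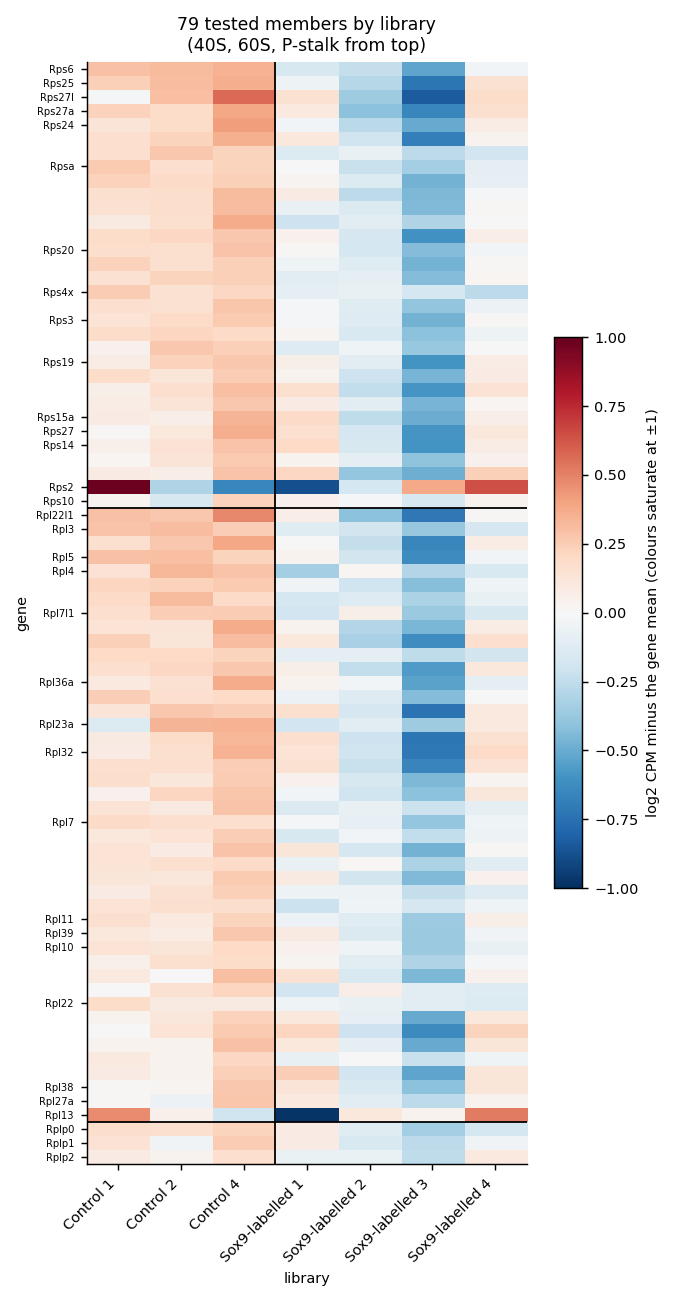
Log2 CPM (TMM scaling) of the 79 tested members minus each gene's mean, with genes in rows by subunit (names mark those described in the text) and the 3 control and 4 libraries labelled Sox9 in columns. Replicate 3 of the libraries labelled Sox9 is lowest for 72 members, and *Rps2* and *Rpl13* stand apart with the same unlike pattern. With total counts only, 17 of the 79 members are higher in the libraries labelled Sox9.

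Exceptions to the shared pattern were *Rps2* and *Rpl13*, the members with the widest spread within groups (pooled SD of 0.75 and 0.54 log2 units, against a median of 0.18 over the members). *Rps2*, a protein of the mRNA entry channel, had 101, 41.6 and 32.6 CPM in the controls, against 27.9, 45.4, 66.6 and 80.0 CPM in the Sox9-labelled libraries. *Rpl13*, a protein of the large subunit, had 485, 361 and 304 CPM against 176, 375, 357 and 501 CPM. For both genes, control replicate 1 and replicate 4 of the libraries labelled Sox9 were the highest libraries and replicate 1 of the libraries labelled Sox9 the lowest, an order that only these 2 members had. Their log2 fold changes were -0.095 (standard error 0.35) and -0.12 (standard error 0.25), with edgeR adjusted p-values of 0.861 and 0.744, and both changed sign with total counts only (0.15 and 0.11), with loess (0.20 and 0.077) and when control replicate 1 was left out (0.54 and 0.068). In both genes the spread within groups was larger than the difference between them. Outside the members, the same 2 highest libraries and the same lowest library were found in *Tpt1*, a TOP mRNA, and in *Mrps15*, of the mitochondrial ribosome.

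Levels of the members differed widely. In control libraries the level per kilobase of annotated transcript (TMM-scaled CPM per kb) had a median of 354 over the tested members, with quartiles at 172 and 611. *Rps14* was highest at 1486 ± 121 CPM per kb (SD, n = 3), followed by *Rpl4* at 1348 ± 91.4 and *Rpl32* at 1124 ± 109 CPM per kb. The first 2 differed by less than the sum of their SDs. Lowest were *Rpl23a* at 27.2 ± 4.93, *Rps15a* at 40.7 ± 4.44 and *Rps20* at 48.2 ± 2.27 CPM per kb. The values of *Rps15a* and *Rps20* rest on annotated transcripts of 5179 and 3706 bases, long for this family, and per kilobase of coding sequence these genes ranked 42 and 48 among the 82 members. *Rpl23a* ranked 79 on both scales, just above the 3 untested genes, and *Rps14*, *Rpl32* and *Rpl4* ranked 2, 3 and 5 per coding kilobase. Libraries labelled Sox9 kept this order (Spearman's rho 0.997 across 79 genes, which share libraries and lengths).

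The level of a member depends on which reads could be counted on it. Ribosomal protein genes have many processed pseudogenes, copies of the mRNA inserted in the genome, and a read that fits several places can be lost or misassigned, depending on a counting step that is not given in the sources used here. Of the 82 members 78 shared at least 1 run of 75 bases, the read length, with the annotated transcript of another gene, readthrough genes included. At the median member 43.1% of the transcript's runs and 82.7% of the coding runs were shared, and 35 members had over 50% of transcript runs shared. *Rps3* shared none, *Rpl4* 8.47%, and *Rps27* 98.5%. *Rpl23a*, the lowest tested member at 12.0, 16.7 and 16.9 CPM in control, shared 100% of its coding runs. How many reads of such genes were counted elsewhere or not at all was not tested, so levels compared between members are uncertain. Across the tested members the level per coding kilobase and the share of coding runs had a Spearman's rho of -0.35, a description over genes. For the level per kilobase of transcript and the share of transcript runs rho was -0.025.

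Fold changes had a Spearman's rho of -0.056 with the share of transcript runs. The median log2 fold change was -0.30 for the 44 tested members with under 50% of transcript runs shared and -0.33 for the other 35. Rows of pseudogenes named after a member numbered 228, of which 202 had a count. They held 0.0155% to 0.0190% of counts in the controls, against 0.0211% to 0.0267% in the Sox9-labelled libraries, without overlap. Divided by the TMM factors these shares were 0.0171% to 0.0202% and 0.0198% to 0.0246%, with overlap. Adding them to the members gave a median of -0.30. Among the tested members the log2 fold change had a Spearman's rho of -0.30 with the average level, 0.33 with the GC content of the transcript and -0.16 with its length.

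Paralogs that can replace a ribosomal protein were compared with their partners as log2 ratios within a library, which no scaling affects. Of 7 pairs compared by an exact permutation test (two-sided, 35 splits, smallest possible p = 0.0286), the adjusted p-values ran from 0.4 to 0.457. With 3 against 4 libraries no pair could reach 0.01, so these tests say little of whether the ratios differ. *Rpl22l1* had the lowest fold change of the family: 76.9, 75.7 and 87.6 CPM in the controls, against 65.7, 47.1, 38.1 and 63.1 CPM in the Sox9-labelled libraries (log2 fold change -0.58, standard error 0.17, edgeR adjusted p = 0.0197). *Rpl22*, its partner, which can repress *Rpl22l1* in other cells, had 200, 187 and 187 CPM against 170, 167, 164 and 160 CPM. Its log2 fold change was -0.20 with TMM (edgeR adjusted p = 0.141), 0.027 with total counts only and 0.047 with loess. The ratio of *Rpl22l1* to *Rpl22* was -1.38, -1.30 and -1.09 in the controls, against -1.37, -1.83, -2.10 and -1.34 in the Sox9-labelled libraries on the log2 scale. Replicates 1 and 4 lay inside the control range, and the difference was -0.40 (exact permutation p = 0.2, adjusted p = 0.45), or -0.26 without replicate 3 labelled Sox9.

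*Rps27l*, a p53 target that can stand in for *Rps27*, had 81.0, 101 and 121 CPM in the controls, against 90.6, 63.8, 45.9 and 92.5 CPM in the Sox9-labelled libraries (log2 fold change -0.46, standard error 0.21, edgeR adjusted p = 0.10). *Rps27* had 295, 315 and 375 CPM against 327, 260, 194 and 313 CPM (log2 fold change -0.26, edgeR adjusted p = 0.226). Both genes overlapped between groups, and their log2 ratio differed by -0.22 (exact permutation p = 0.143, adjusted p = 0.45). *Rpl7l1* and *Rpl7* had log2 fold changes of -0.38 and -0.30 and a ratio difference of -0.078 (exact permutation p = 0.4), which was -0.030, -0.14 and -0.051 without replicate 1, 2 or 4 labelled Sox9. *Rpl36al* to *Rpl36a* differed by 0.13 (exact permutation p = 0.457), by 0.031 without control replicate 4 and by 0.064 without replicate 3 labelled Sox9. *Rps4l*, which the annotation lists as a transcribed processed pseudogene, differed from *Rps4x* by 0.33 (exact permutation p = 0.429), by -0.0055 without control replicate 4, by 0.62 without control replicate 2 and by 0.11 without replicate 4 labelled Sox9. Within groups the log2 ratio of *Rpl22l1* to *Rpl22* had SDs of 0.15 (n = 3) and 0.37 (n = 4).

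The 3 members that did not pass the filter are paralogs known from muscle or testis. *Rpl3l*, the form of heart and skeletal muscle, had 1, 4 and 1 counts in the controls, against 7, 7, 3 and 1 in the Sox9-labelled libraries. Its log2 ratio to *Rpl3* was 1.91 higher in the latter without overlap (exact permutation p = 0.0571, adjusted p = 0.4), a value that rests on at most 7 reads. *Rpl39l* and *Rpl10l*, retained copies active in the male germ line, had 0, 1 and 5 against 0, 4, 7 and 4 counts, and 1, 0 and 1 against 2, 3, 2 and 0 counts. Their partners *Rpl39* and *Rpl10* had 666 and 3292 counts in control replicate 1. At a count of 0 up to 3 reads would be allowed, so differences of these genes were not detectable at this depth.

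Sequence at the start was compared with the fold change. Of the members 62 have a window in the RefSeq table, and 13 of them (21.0%) start with C and at least 4 further C or T, against 2.67% of 16126 other protein-coding genes. Within 10 bases of the start such a run was found in 62.9% of members and 35.2% of other genes. Over 250 bases before to 50 after the start, on both strands, CCGGAAG (an ETS site) occurred in 41.9% of members and 13.4% of the others, AAGATGG (a YY1 site) in 16.1% and 7.27%, GGGCGG (an SP site) in 62.9% and 51.7%, and TATAAA in 11.3% and 14.0%. These are matches of letters and not known sites. Members with the tract at the start had a median log2 fold change of -0.26 (3 of 13 lower at an adjusted p under 0.05), and members without it -0.31 (16 of 46). At that threshold 10.8% of all genes and 30.8% of genes at the same level were called lower, so both counts lie near the share of genes at the same level. *Rps6* and *Rps10*, whose tracts are printed above, had the largest and the smallest difference of the small subunit with TMM, and *Rps10* was above 0 with total counts only and loess.

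Other genes of the ribosome and of translation had medians like that of the members with TMM scaling, and nearer 0 with loess. Their counts of calls stand beside 3.43% lower of all genes tested, and 8.28% with a median of -0.26 at the members' level, and most lie near these shares. Of the ribosomal genes outside the rule, *Fau*, *Rack1* and *Rpl36al* were not called. *Rack1*, a scaffold on the small subunit, had a log2 fold change of -0.30 (edgeR adjusted p = 0.0582). Among 21 TOP mRNAs that encode no ribosomal protein, 4 were called lower and none higher, with a median of -0.33. *Npm1* and *Nap1l1*, histone chaperones, were lower, with log2 fold changes of -0.48 and -0.57 (edgeR adjusted p = 0.00488 and 0.00222), while *Eef1a1* (-0.23) and *Eef2* (-0.17) did not pass. *Vim*, also a radial glia marker, had the lowest of the list at -1.17.

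Of 75 tested genes of ribosome biogenesis 6 were called lower and none higher, with a median of -0.29. They included *Mphosph10* and *Nop16* (-0.68 and -0.51, edgeR adjusted p = 0.0031 and 0.00553), whereas *Ncl* (nucleolin) was at -0.21 and *Fbl* (fibrillarin) at 0.23, without a call. Translation initiation had 5 of 52 called lower and a median of -0.28, among them *Eif1b* (-0.66) and *Eif2s1* (-0.61). The mitochondrial ribosome, a separate machine whose proteins are also coded in the nucleus, had 3 of 76 called lower and a median of -0.30, near that of the cytosolic set. In the mTOR axis 1 of 23 was called lower. This was *Eif4ebp1*, a repressor of cap-dependent translation that is also 1 of the 5 genes called in the initiation list and the lowest there, at 4.37 ± 1.88 CPM (SD, n = 3) for the controls and 1.26 ± 0.616 (SD, n = 4) for the Sox9-labelled libraries (log2 fold change -1.80, edgeR adjusted p = 0.0093), while *Mtor* (-0.16), *Larp1* (-0.35) and *Mycn* (-0.25) did not pass.

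The genes whose log2 CPM over the 7 libraries was most like the mean of the members were *Tvp23b*, *Cebpzos*, *Atp5h*, *Cnih1* and *Naca*, with Pearson's r from 0.990 to 0.995. *Naca*, a TOP mRNA whose protein binds nascent chains at the ribosome, had a log2 fold change of -0.32.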

How the data were processed

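The authors combined sequencing lanes, trimmed adapters with cutadapt and aligned 75-base single-end reads to mm10 with STAR (version 2.5.2b per the labels, with bcl2fastq 2.17.1.14). They deposited 2 tables, the authors' raw counts (whole numbers, not normalized) and the authors' FPKM values. The counting program, and its use of strand and multiply mapped reads, are not given in the sources used here. For 67 of 79 members the length linking deposited counts to FPKM was, to within 2%, that of the whole gene with its introns, so FPKM was not used for levels. All 7 columns were used.

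Counts were tested with edgeR 4.0.16 (R 4.3.3, TMM, filterByExpr, quasi-likelihood) over all genes, with limma 3.58.1 and DESeq2 1.42.0 as alternatives. The standard error is the log2 fold change divided by the square root of F. CPM and ratios were computed with pandas 2.3.3 (ratios with 0.5 added to each count). The procedure was tested on simulated data in which as many genes rose as fell and no change depended on level. How the scaling handles a trend of fold change with level was therefore not tested by it. Annotation was GENCODE of GRCm38. Same-numbered libraries (by titles) correlated at -0.036, 0.12 and -0.0048 over all genes and at -0.69, 0.43 and -0.24 over the members. These are not correlations of expression levels, and values near 0 do not show that libraries were unpaired. The labels state no pairing, so replicates were not paired.

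The members, lists and named genes were chosen with earlier results of these data known. Named members were those called, the 5 largest and 5 smallest changes, the 3 highest and 3 lowest levels, and a list of well-studied members and paralogs. Some genes are not reported here.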

Additional observations from a re-analysis of the deposited data

How the results depend on the processing

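The 2 members called lower were 27 at an adjusted p under 0.05, 22 with DESeq2, 24 with no filter on low counts, and 0 with cyclic loess or with at least 10 counts in every library, and 0 by edgeR's quasi-likelihood test both with total counts only and when libraries were scaled to the members (these last 2 chosen after seeing the data). Leaving out 1 library gave 0 to 2 calls: 0 without any of the 3 controls or without replicate 3 labelled Sox9, and 1 without replicate 1 or 4 labelled Sox9. The share of all genes called in these fits is not given here, so the counts are not read as a result about the members. No alternative called a member higher. The members' median was -0.067 with loess and -0.078 with total counts only. With a replicate block by the titles' numbers 0 members were called lower and by the descriptions' numbers 2, but the labels do not state that equal numbers form pairs. The share of all genes called in these block fits is likewise not given here. Among the named members only, signs reversed with loess for *Rplp2* (0.093), *Rpl27a* (0.10), *Rpl13* (0.077), *Rps2* (0.20), *Rps10* (0.17), *Rplp1* (0.048), *Rpl22* (0.047) and *Rpl38* (0.062), and with total counts only for the same 8 genes (0.069, 0.098, 0.11, 0.15, 0.17, 0.021, 0.027 and 0.062). With at least 10 counts in every library they reversed for *Rpl27a* (0.0045), *Rpl13* (0.022), *Rps2* (0.055) and *Rps10* (0.075), and with pseudogene counts added for *Rps2* (0.017). Leaving out 1 library gave values from -0.27 to 0.13 for *Rpl13*, from -0.36 to 0.54 for *Rps2*, from -0.15 to 0.060 for *Rps10* and from -0.0055 to 0.62 for the log2 ratio of *Rps4l* to *Rps4x*, the lowest without control replicate 4. The cause was not tested.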
